A study of Mus musculus with 11 samples.

Results

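Feedback inhibitors and ETS target genes of the ERK kinase pathway were followed by RNA sequencing in mouse neural stem cells and in cultures of them after a change of medium. They are Spry1, Spry2, Spry4, Spred1, Spred2, Dusp4, Dusp5, Dusp6, Etv4 and Etv5. These 10 genes, of 37991 genes in the table, were taken by symbol, and all 10 passed the filter on low values, as did 13342 genes in all. The members were chosen by their CPM values in all 11 libraries, read for a fall after the medium change. Their differences from the stem cells are therefore given below as a description without a test. The differences between the media were tested, but the choice had read the day 4 values too. The members' p-values and counts between media are thus description and no independent support.

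The cells came from frontal cortices of C57BL/6J embryos at E14.5 and were expanded in NeuroCult proliferation medium. At 70% confluency this medium was washed off and replaced, with fresh medium every 48 h. Libraries were made from the stem cells before the change (group NSC, day 0, 3 libraries) and at day 4 in each of 3 media, all with GlutaMAX. The Astrocyte group was in DMEM to which N-2 supplement (1%) and fetal bovine serum (1%) had been added, with 3 libraries. The Neuron group was in Neurobasal with 2% B-27 supplement (3 libraries). The Oligodendrocyte group, of 2 libraries, was in that same Neurobasal medium plus T3, a thyroid hormone, at 30 ng/mL. The group names stand for the medium given, not for a purified cell type, and no day 4 culture in proliferation medium was analysed here, so the effect of the new medium and that of time cannot be told apart. The labels call the libraries of a group biological replicates, but do not say whether they were separate isolations, so the p-values measure the spread between these libraries.

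The ERK pathway carries signals of growth factor receptors through RAS, RAF and MEK to the kinases ERK1 and ERK2. Sprouty (Spry) and Spred proteins damp the pathway at the level of RAS and RAF, and the DUSP phosphatases named here remove the activating phosphates from MAP kinases. Etv4 and Etv5 encode ETS transcription factors that are induced by fibroblast growth factor signalling, and many of these genes are held down by the repressor capicua until ERK activity relieves it. In cortical stem cells the pathway is known for its part in proliferation and in the choice between neuronal and glial fates.

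The genes were also compared in their promoter sequence, since they are known as shared targets of capicua and ETS factors. RefSeq promoter windows (GRCm38.p6, from 250 bases before to 50 after a start, 300 bases in all) were matched for 7 of the 10 genes, as 8 windows, and not for Spry4, Dusp4 and Etv4. The capicua octamers TGAATGAA and TGAATGGA, searched on both strands, were in 0 of these 8 windows, against 1.3% and 1.21% of all 32851 windows. Neither the ETS sequence CCGGAAGT (3.89% of all windows), the AP-1 site TGANTCA (7.81%) nor the CRE TGACGTCA (1.79%) was found in the 8 windows. At shares this low, 0 of 8 windows does not set the members apart. Of 14 windows of the related target genes described below, 3 held TGAATGAA (Dusp16, Epha2 and Spred3) and 0 held TGAATGGA. The CRE was in 3 of these 14 (Dusp1, Dusp8 and Epha2), and the ETS sequence and the AP-1 site were in 0. Further forms were searched after the sequences had been seen: TCAATGAA (0.749% of all windows) was in that of Spry2, and TCAATGGA (0.67%) was in that of Dusp6. The core TGAATG, which both octamers searched first contain, was in windows of Dusp5, Dusp6 and Etv5, 3 of 8, against 12.7% of all windows. The short ETS core GGAA was in 7 of the 8 windows and in 96% of all windows. The member windows had a median GC content of 63.5% and 28 CpG, against 52.7% and 7 over all windows. The 250 bases before a start are shown for Dusp6 and Spry2, each with an octamer match, and for Etv5, with the most core matches, with each match of TCAATGAA, TCAATGGA or TGAATG on either strand in capitals.
Dusp6, chr10:99262981-99263230, + strand: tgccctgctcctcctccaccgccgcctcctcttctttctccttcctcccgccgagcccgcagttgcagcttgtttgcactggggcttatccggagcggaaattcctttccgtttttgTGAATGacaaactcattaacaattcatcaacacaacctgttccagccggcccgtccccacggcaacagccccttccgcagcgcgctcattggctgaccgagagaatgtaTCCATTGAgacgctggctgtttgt
Spry2, chr14:105896820-105897069, - strand: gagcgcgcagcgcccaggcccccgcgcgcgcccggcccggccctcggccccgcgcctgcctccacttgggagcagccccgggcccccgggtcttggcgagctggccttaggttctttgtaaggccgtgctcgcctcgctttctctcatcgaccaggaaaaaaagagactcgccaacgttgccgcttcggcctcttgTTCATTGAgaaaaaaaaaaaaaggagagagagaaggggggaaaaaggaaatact
Etv5, inner start, chr16:22438369-22438618, - strand: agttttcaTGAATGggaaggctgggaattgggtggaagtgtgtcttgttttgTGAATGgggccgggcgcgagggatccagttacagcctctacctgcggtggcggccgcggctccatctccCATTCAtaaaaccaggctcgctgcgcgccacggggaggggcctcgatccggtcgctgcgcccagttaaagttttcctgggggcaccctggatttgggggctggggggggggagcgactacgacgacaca

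In the Dusp6 window the octamer match lies near the start and the core match farther upstream. The Spry2 window has a single octamer match close to a run of A. The Etv5 window shown, of the inner start, has 3 core matches and no octamer, and the other Etv5 window, of the outer start, has neither. The end of the inner Etv5 window was not found in a transcript of the gene, while that of the outer window was. The end of the Spred1 window, not shown, was not found in a transcript either. A match describes these letters only, and no binding data were used here. The positions of the genes given below are those of the deposited table, on the older build NCBIM37 (mm9), and differ from the GRCm38.p6 positions above.

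After 4 days in the new media most of these genes were read at least 2-fold below their stem cell level. Counted by group means of log2(CPM + 1), where CPM is a gene's reads scaled to a common library total, 7 of the 10 genes lay at least 2-fold below NSC in the Astrocyte group, 8 in the Neuron group and 8 in the Oligodendrocyte group. The same held for 12.3%, 13.8% and 10.7% of all tested genes, a share against which nothing is read here because the members were chosen for this fall. Dusp6, Etv4, Etv5, Spred2, Spry1, Spry2 and Spry4 were at least 2-fold lower in all 3 media. On this scale Dusp4 was so in Neuron only, Dusp5 in Oligodendrocyte only, and Spred1 in none. The members' median difference from NSC was -2.73 on the log2 scale in Astrocyte, -1.76 in Neuron and -2.54 in Oligodendrocyte, beside medians of 0.15, 0.06 and 0.19 over all tested genes. The NSC and day 4 libraries did not overlap for 10 members in Astrocyte, 9 in Neuron and 10 in Oligodendrocyte, where 86.2%, 83.2% and 89.3% of all tested genes did not overlap either. In bulk RNA, fewer cells that express a gene and less RNA of it per cell cannot be told apart.

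**Figure D1:**
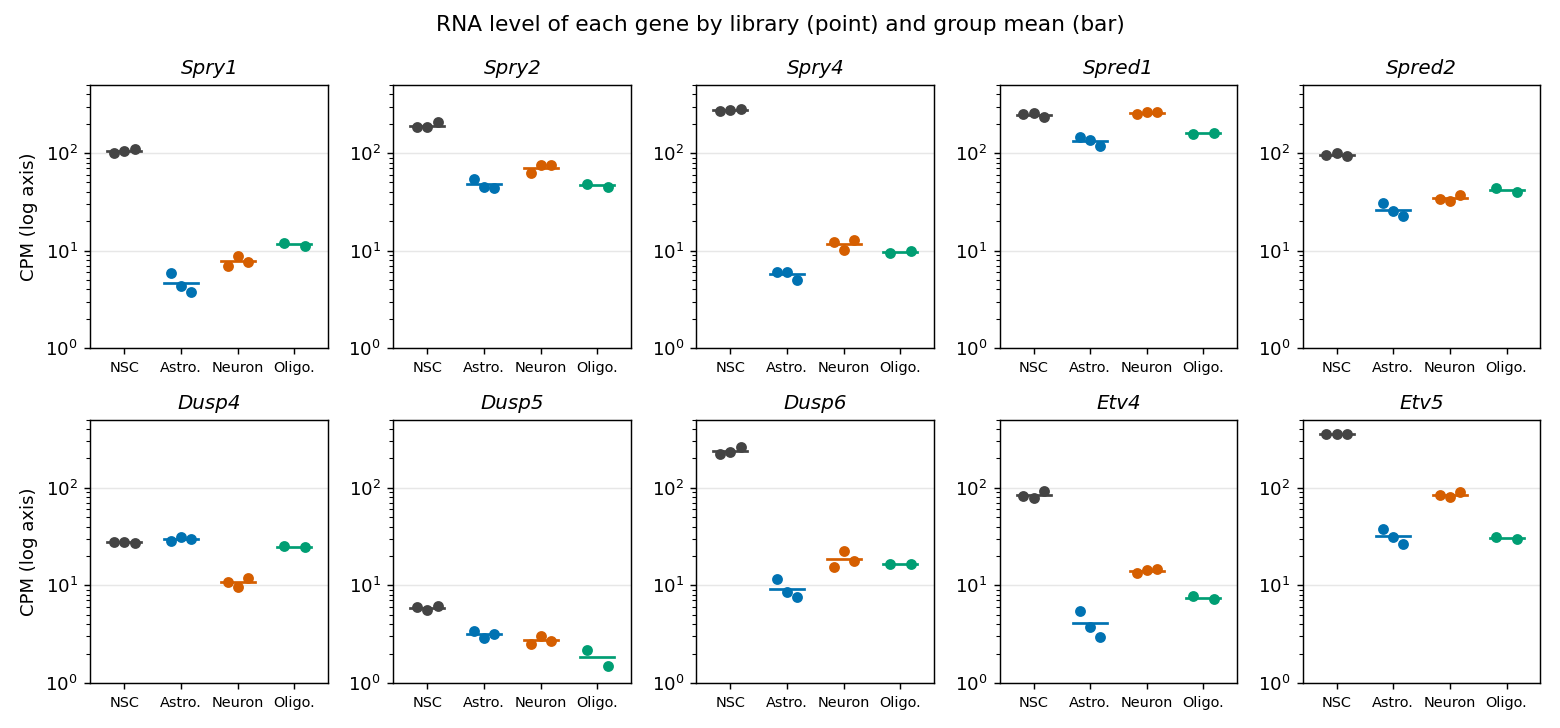
RNA level of the 10 genes, 1 panel a gene, on a log axis in CPM. Each point is 1 library (3 NSC, 3 Astrocyte, 3 Neuron and 2 Oligodendrocyte) and each bar is a group mean; NSC stands above every day 4 library except for Spred1 and Dusp4.

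Among the Sprouty genes, which encode inhibitors that act between receptor and RAS, Spry4 (ENSMUSG00000024427, chromosome 18, 38745922 to 38760922, minus strand) showed the widest gap. It was read at 273.28, 275.46 and 283.13 CPM in the 3 NSC libraries, at 6.08, 6.08 and 4.95 CPM in Astrocyte, at 12.14, 10.23 and 12.89 CPM in Neuron, and at 9.36 and 9.81 CPM in Oligodendrocyte. All 8 day 4 libraries lay far below all NSC libraries, the Astrocyte libraries were the lowest, and the Oligodendrocyte libraries lay below all Neuron libraries without overlap. By mean CPM Spry4 was 48.6-fold lower in Astrocyte, 23.6-fold lower in Neuron and 28.9-fold lower in Oligodendrocyte than in NSC (277 ± 5.17 CPM, SD, n = 3).

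At day 4, Spry4 was lower in Astrocyte than in Neuron by -0.93 ± 0.089 (SE, log2 scale; limma adjusted p = 1.09e-06). Oligodendrocyte exceeded Astrocyte by 0.66 ± 0.10 (limma adjusted p = 9.72e-05). The smaller difference of Oligodendrocyte from Neuron, -0.26 ± 0.10 (limma adjusted p = 0.0321), did not keep its call without Neuron replicate 1 (adjusted p 0.0757) or 3 (0.114) or without Oligodendrocyte replicate 1 (0.148) or 2 (0.0754). That call was also lost with only the 2 groups in the fit (0.0838) and with no filter on low values (0.0583), and the adjusted p ranged from 4.93e-04 to 0.148 over all 21 alternatives.

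Spry1 (ENSMUSG00000037211, chromosome 3, 37538869 to 37543520, plus strand), an inhibitor of the same kind, was read at 99.7, 104.07 and 108.9 CPM in NSC and at 5.92, 4.32 and 3.8 CPM in Astrocyte. Neuron libraries held 6.94, 8.75 and 7.71 CPM of it, and Oligodendrocyte libraries 12.06 and 11.16 CPM. No groups overlapped, and the order from the highest was NSC, Oligodendrocyte, Neuron and Astrocyte. Its mean CPM was 22.3-fold lower than in NSC (104 ± 4.60 CPM, SD, n = 3) in Astrocyte, 13.4-fold lower in Neuron and 8.98-fold lower in Oligodendrocyte. Between the day 4 groups, Spry1 was 1.17 ± 0.133 higher on the log2 scale in Oligodendrocyte than in Astrocyte (limma adjusted p = 8.30e-06) and -0.64 ± 0.119 in Astrocyte against Neuron (limma adjusted p = 3.66e-04). It was 0.52 ± 0.133 higher in Oligodendrocyte than in Neuron (limma adjusted p = 0.00347). Only this last call was lost under an alternative, quantile normalization, where the adjusted p was 0.0502 (range over the alternatives 4.41e-04 to 0.0502).

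Spry2 (ENSMUSG00000022114, chromosome 14, 106291166 to 106296036, minus strand) kept more of its RNA than the other Sprouty genes. It was read at 185.19, 183.36 and 206 CPM in NSC, at 54.57, 45.03 and 43.67 CPM in Astrocyte, at 62.66, 75 and 75.52 CPM in Neuron, and at 48.07 and 45.3 CPM in Oligodendrocyte. Neuron was the highest day 4 group, and the Oligodendrocyte libraries lay within the Astrocyte range. Its mean was lower than in NSC (192 ± 12.6 CPM, SD, n = 3) by 4.01-fold in Astrocyte, 2.69-fold in Neuron and 4.10-fold in Oligodendrocyte. Spry2 was lower than in Neuron both in Astrocyte (-0.57 ± 0.093, limma adjusted p = 1.39e-04) and in Oligodendrocyte (-0.59 ± 0.104, limma adjusted p = 2.19e-04). Oligodendrocyte and Astrocyte did not differ beyond their spread (-0.03 ± 0.104, limma adjusted p = 0.851), and the sign of that difference turned without Astrocyte replicate 1 (0.072) and without Oligodendrocyte replicate 2 (0.016). The remaining gene of the family, Spry3, is listed at 0 in all 11 libraries.

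Spred proteins bring neurofibromin, which inactivates RAS, to the membrane. Spred1 (ENSMUSG00000027351, chromosome 2, 116947110 to 117008015, plus strand) was the member whose Neuron level stayed near that of the stem cells. NSC libraries held 250.84, 259.11 and 231.86 CPM and Neuron libraries 249.22, 263.98 and 261.2 CPM, while Astrocyte libraries held 144.53, 137.73 and 119.34 CPM and Oligodendrocyte libraries 157.37 and 162.2 CPM. NSC and Neuron overlapped, and the Astrocyte and Oligodendrocyte libraries lay below both, in that order from the lowest. The Neuron difference from NSC was 0.06 on the log2 scale and became -0.012 under median-of-ratios scaling, so it has no stable direction. In Astrocyte the mean was 1.85-fold lower than in NSC (247 ± 14.0 CPM, SD, n = 3), and in Oligodendrocyte 1.55-fold lower.

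Tested between media, Spred1 was -0.95 ± 0.073 in Astrocyte against Neuron (limma adjusted p = 1.22e-07) and -0.69 ± 0.081 in Oligodendrocyte against Neuron (limma adjusted p = 6.32e-06). These differences are also those between the changes from NSC in the 2 media, since the NSC mean is common to both. The step from Astrocyte up to Oligodendrocyte, 0.26 ± 0.081 (limma adjusted p = 0.0168), lost its call under quantile normalization (0.0699). It did so as well without Astrocyte replicate 3 (0.0628) and without Oligodendrocyte replicate 1 (0.0565) or 2 (0.108), in a range of 0.00673 to 0.108 over the alternatives.

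Spred2 (ENSMUSG00000045671, chromosome 11, 19824378 to 19924029, plus strand) was read at 94.77, 99.26 and 94.25 CPM in NSC and at 31.1, 25.35 and 22.48 CPM in Astrocyte. Neuron libraries held 33.56, 32.09 and 37.6 CPM and Oligodendrocyte libraries 43.96 and 39.9 CPM. The groups did not overlap, and Spred2 was lower in Neuron than in NSC, where Spred1 overlapped. Its mean was 3.65-fold lower than in NSC (96.1 ± 2.75 CPM, SD, n = 3) in Astrocyte, 2.79-fold lower in Neuron and 2.29-fold lower in Oligodendrocyte. Spred2 was lower in Astrocyte than in Neuron (-0.38 ± 0.099, limma adjusted p = 0.00422), and Oligodendrocyte exceeded Astrocyte (0.66 ± 0.111, limma adjusted p = 2.34e-04). The 0.28 ± 0.111 by which Oligodendrocyte stood above Neuron (limma adjusted p = 0.0392) was not called under median-of-ratios scaling (0.221), quantile normalization (0.439), no filter (0.0837) or an untrended fit (0.0502). It was also lost without NSC replicate 1 (0.0535) or 3 (0.0515), Astrocyte replicate 2 (0.0513), Neuron replicate 1 (0.0798) or 2 (0.0653), or Oligodendrocyte replicate 1 (0.23) or 2 (0.0586), and the adjusted p ranged from 0.0107 to 0.439. Spred3, the remaining gene of the family, went from 22.9 ± 0.339 CPM in NSC (SD, n = 3) to 8.65 in Astrocyte, 12.6 in Neuron and 13.5 in Oligodendrocyte, and each of these falls passed the test (limma adjusted p = 1.74e-07, 2.22e-05 and 2.16e-04).

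Of the phosphatases, Dusp6, which acts on ERK in the cytoplasm, was far below its stem cell level in all media. Dusp6 (ENSMUSG00000019960, chromosome 10, 98725865 to 98730122, plus strand) was read at 224.5, 235.86 and 260.74 CPM in NSC, at 11.71, 8.49 and 7.63 CPM in Astrocyte, at 15.56, 22.25 and 17.98 CPM in Neuron, and at 16.37 and 16.65 CPM in Oligodendrocyte. The Astrocyte libraries were the lowest, and the Oligodendrocyte libraries lay within the Neuron range. From the NSC mean (240 ± 18.5 CPM, SD, n = 3) the mean was 25.9-fold lower in Astrocyte, 12.9-fold lower in Neuron and 14.6-fold lower in Oligodendrocyte. The day 4 test put Dusp6 lower in Astrocyte than in Neuron (-0.94 ± 0.138, limma adjusted p = 5.27e-05), with Oligodendrocyte above Astrocyte (0.79 ± 0.154, limma adjusted p = 8.06e-04). Oligodendrocyte and Neuron did not differ beyond their spread (-0.15 ± 0.154, limma adjusted p = 0.408).

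Dusp4 encodes a nuclear phosphatase of MAP kinases and followed another course. Dusp4 (ENSMUSG00000031530, chromosome 8, 35870351 to 35882948, plus strand) was read at 27.66, 27.56 and 27.33 CPM in NSC, at 28.68, 31.17 and 30.05 CPM in Astrocyte and at 25.09 and 24.72 CPM in Oligodendrocyte. The Neuron libraries, at 10.84, 9.73 and 11.91 CPM, stood apart below all others. Against NSC (27.5 ± 0.169 CPM, SD, n = 3) the mean was 2.54-fold lower in Neuron and 1.10-fold lower in Oligodendrocyte, and it differed by 0.12 on the log2 scale in Astrocyte. That Astrocyte difference became -0.056 under median-of-ratios scaling, so its direction depends on the scaling. Against Neuron, Dusp4 was higher in Astrocyte by 1.39 ± 0.073 (limma adjusted p = 3.91e-09) and in Oligodendrocyte by 1.14 ± 0.082 (limma adjusted p = 6.15e-08). The difference of Oligodendrocyte from Astrocyte, -0.26 ± 0.082 (limma adjusted p = 0.0178), lost its call without Astrocyte replicate 2 (0.0617) and without Oligodendrocyte replicate 1 (0.0667) or 2 (0.0949), and ranged from 0.00404 to 0.0949.

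Dusp5, another nuclear phosphatase that acts on ERK, gave the fewest reads. Dusp5 (ENSMUSG00000034765, chromosome 19, 53603599 to 53616921, plus strand) was read at 5.94, 5.53 and 6.07 CPM in NSC, at 3.39, 2.89 and 3.17 CPM in Astrocyte, at 2.5, 2.99 and 2.67 CPM in Neuron, and at 2.18 and 1.48 CPM in Oligodendrocyte. The Oligodendrocyte libraries were the lowest, and Astrocyte and Neuron overlapped. The lowest of these values corresponds to about 94 reads, with a counting error of 10.3%. Compared with 5.85 ± 0.282 CPM in NSC (SD, n = 3) the mean was 1.86-fold lower in Astrocyte, 2.15-fold lower in Neuron and 3.2-fold lower in Oligodendrocyte. On the log2(CPM + 1) scale, which understates changes of low genes, these differences were -0.72, -0.88 and -1.28. Dusp5 was lower in Oligodendrocyte than in Astrocyte (-0.56 ± 0.114, limma adjusted p = 0.00107). Against Neuron, too, the Oligodendrocyte level was lower (-0.40 ± 0.114, limma adjusted p = 0.00678), a call lost without Oligodendrocyte replicate 2 (0.138; range 3.99e-04 to 0.138). For Astrocyte against Neuron the difference was 0.16 ± 0.102 (limma adjusted p = 0.193), and its sign turned under quantile normalization (-0.062).

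The ETS factor genes Etv4 and Etv5, like Spry2 and Spred1, were lower in both other media than in Neuron. Etv4 (ENSMUSG00000017724, chromosome 11, 101631056 to 101646685, minus strand) was read at 81.99, 78.84 and 92.2 CPM in NSC, at 5.52, 3.78 and 2.95 CPM in Astrocyte, at 13.47, 14.38 and 14.71 CPM in Neuron, and at 7.74 and 7.23 CPM in Oligodendrocyte. No groups overlapped, and Astrocyte was the lowest. Relative to NSC (84.3 ± 6.98 CPM, SD, n = 3) Etv4 was 20.7-fold lower in Astrocyte, 5.95-fold lower in Neuron and 11.3-fold lower in Oligodendrocyte by mean CPM. All 3 day 4 differences passed the test and did so under every alternative run: -1.61 ± 0.139 for Astrocyte against Neuron (limma adjusted p = 3.75e-07), -0.84 ± 0.155 for Oligodendrocyte against Neuron (3.32e-04) and 0.77 ± 0.155 for Oligodendrocyte against Astrocyte (0.00102).

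Etv5 (ENSMUSG00000013089, chromosome 16, 22381382 to 22439792, minus strand) was read at 356.23, 358.92 and 357.94 CPM in NSC, at 38.12, 31.09 and 26.28 CPM in Astrocyte, at 83.61, 81.18 and 91.24 CPM in Neuron, and at 31.09 and 30.14 CPM in Oligodendrocyte. The Neuron libraries lay above the other day 4 libraries, and the Oligodendrocyte libraries lay within the Astrocyte range. Against 358 ± 1.36 CPM in NSC (SD, n = 3) the mean of Etv5 was 11.2-fold lower in Astrocyte, 4.19-fold lower in Neuron and 11.7-fold lower in Oligodendrocyte. Etv5 was lower than in Neuron by -1.41 ± 0.10 in Astrocyte (limma adjusted p = 6.15e-08) and by -1.45 ± 0.112 in Oligodendrocyte (limma adjusted p = 1.19e-07). Astrocyte and Oligodendrocyte did not differ beyond their spread (-0.04 ± 0.112, limma adjusted p = 0.790), and the sign turned without Astrocyte replicate 1 (0.095).

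**Figure D2:**
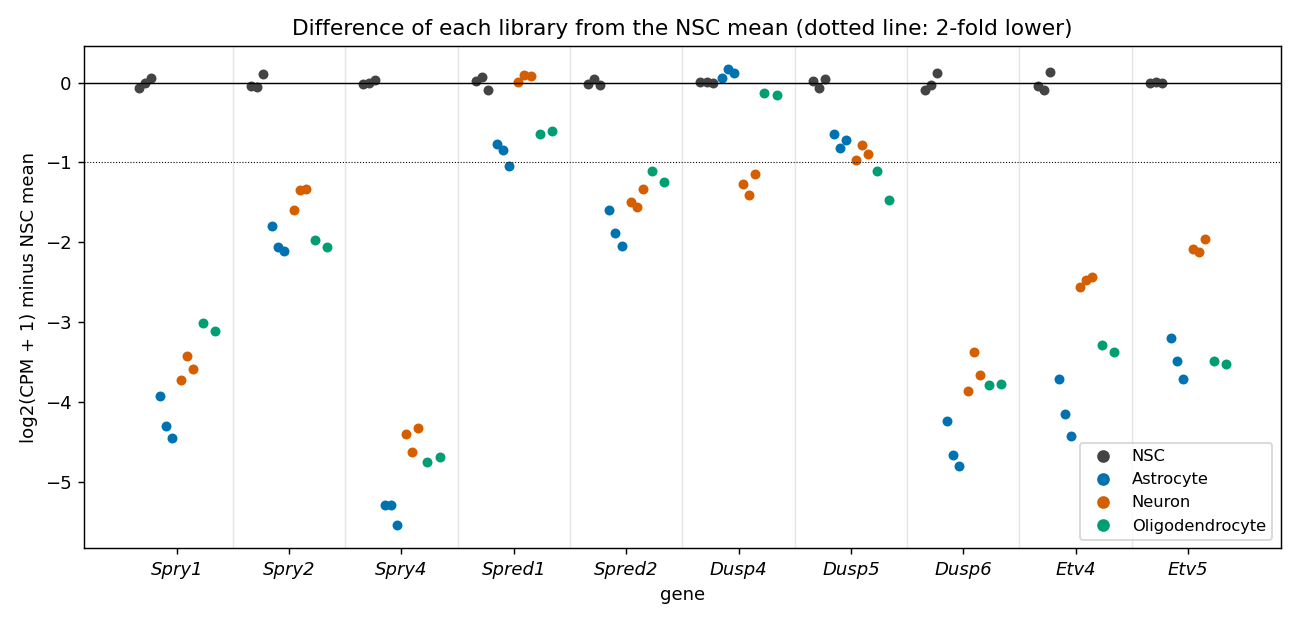
Difference of each library from the NSC mean on the log2(CPM + 1) scale for the 10 genes; points are libraries coloured by group, and the dotted line marks a 2-fold lower level. Spry4 reaches the lowest values, Spred1 in Neuron and Dusp4 in Astrocyte stay near 0, and the Etv4 and Etv5 points of Neuron lie above those of the other media.

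Between the media, the members differed from each other in direction. In Astrocyte against Neuron 9 of 10 passed the test, where 62.2% of all tested genes did: Dusp4 was higher, and Spry1, Spry2, Spry4, Spred1, Spred2, Dusp6, Etv4 and Etv5 were lower. The background was 40.3% higher and 22% lower, and the members' median difference was -0.79 beside 0.10 over all tested genes. Under median-of-ratios scaling the split of all calls moved from 64.7% to 52.8% higher, and to 48.5% under quantile normalization, while the member calls stayed at 1 higher and 8 lower under all alternatives. In Oligodendrocyte against Neuron, where T3 is the stated difference between the media, 9 of 10 passed the test against a background of 67.5%. Dusp4, Spry1 and Spred2 were higher (background 43.9%), and Dusp5, Etv4, Etv5, Spred1, Spry2 and Spry4 were lower (23.6%). This count was 8, with 2 higher and 6 lower, under median-of-ratios scaling, and 7, with 1 higher and 6 lower, under quantile normalization. Of all calls in that comparison 65.1% were higher, and 52.5% and 48% under these scalings. The lowest count, 6, came without Oligodendrocyte replicate 2, and this contrast rests on 2 Oligodendrocyte libraries.

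In Oligodendrocyte against Astrocyte 8 of 10 members passed the test, beside 52.2% of all tested genes. Spry1, Spry4, Spred1, Spred2, Dusp6 and Etv4 were higher (background 28.7%), and Dusp4 and Dusp5 were lower (23.5%). These counts fell to 6 without either Oligodendrocyte replicate. The comparisons share libraries, so their counts are not independent. By group mean, Astrocyte held the lowest level of 6 members (Dusp6, Etv4, Spred1, Spred2, Spry1 and Spry4), Oligodendrocyte that of 3 (Dusp5, Etv5 and Spry2) and Neuron that of 1 (Dusp4).

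**Figure D3:**
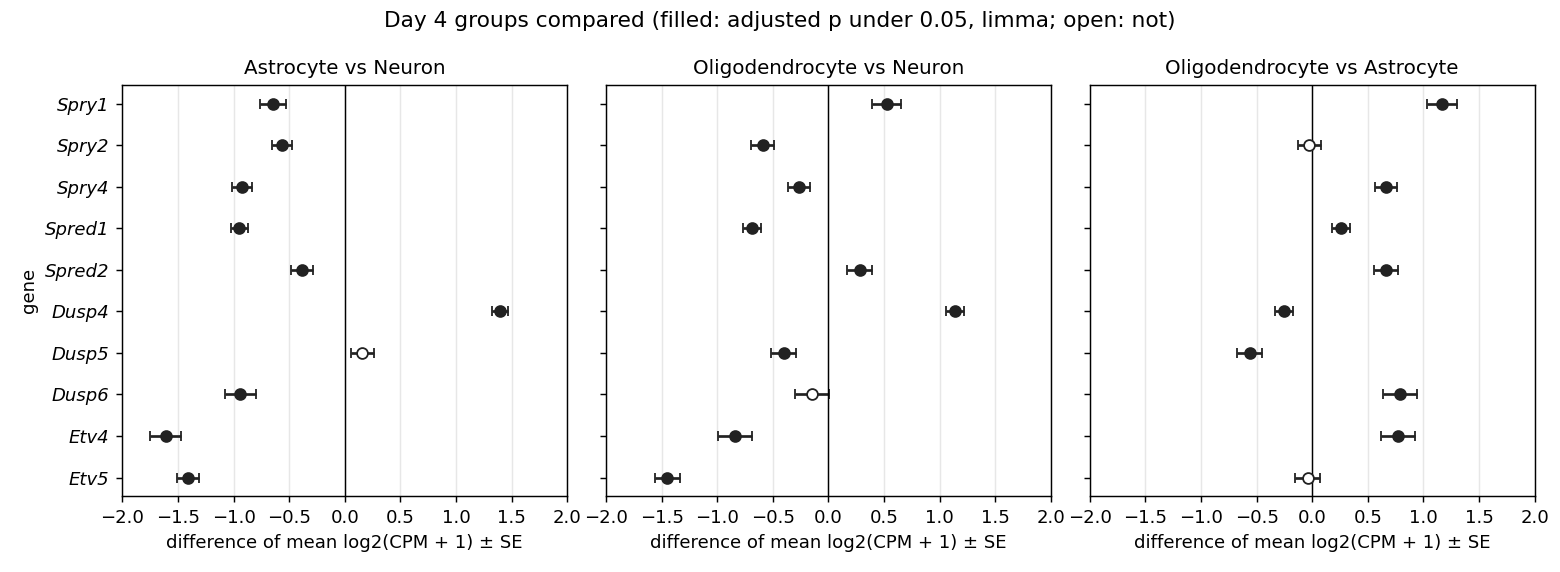
Differences between the day 4 groups for the 10 genes as the difference of mean log2(CPM + 1), with bars of 1 SE from the limma fit; filled points passed an adjusted p of 0.05 and open points did not. Dusp4 lies to the right in the comparisons with Neuron, and Etv4 and Etv5 lie to the left in both.

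Within the Astrocyte group, the libraries kept an order over most members. Astrocyte replicate 1 was the highest of the 3 for 9 of 10 members, with Dusp4 as the exception, and replicate 3 was the lowest for 8. Outside the members, Epha4 had this order (93.45, 83.45 and 74.91 CPM) and Egfr did not (126.46, 134.99 and 113.84 CPM). The share of all tested genes with this order was not computed, so it is not read as a trait of the members. Reads of the 10 members together came to 264.32 to 329.62 CPM in Astrocyte, 490.5 to 533.43 CPM in Neuron, 348.59 to 353.29 CPM in Oligodendrocyte and 1600.1 to 1668.42 CPM in NSC. These ranges do not overlap, with the highest Astrocyte library just below the lowest Oligodendrocyte library. Spred1 was the largest part of the day 4 sums, at a mean of 134 of 297 CPM in Astrocyte, 258 of 515 in Neuron and 160 of 351 in Oligodendrocyte. The sums therefore follow this gene more than the others.

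The gene whose pattern over the 11 libraries was most like the members' average was Sall3, a zinc finger transcription factor gene. The measure was the root mean square difference of log2 values, each taken from the gene's own NSC mean, over 8691 genes with at least 10 CPM in NSC. Sall3 had 0.133 and went from 264 CPM in NSC to 37.6 in Astrocyte, 55.7 in Neuron and 46.7 in Oligodendrocyte. Hs6st2 (0.154), Cenpq (0.158), Trib2 (0.158) and Itpripl1 (0.167) followed. Among the members themselves Spry2 was the closest to their average, at rank 206 (0.547), and Spry4 the farthest, at rank 5076 (2.11), so the average describes no single member closely.

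Other feedback and target genes of the pathway, from a list of 19 of which 15 could be tested, were tested against NSC as well. This list, like the receptor and ETS lists below, was chosen with earlier results of these data known. Counts and p-values of these lists against NSC are therefore description and no independent support. In Astrocyte all 15 passed (3 higher and 12 lower), in Neuron 14 did (4 higher and 10 lower) and in Oligodendrocyte 14 did (3 higher and 11 lower), beside 83.6%, 83.1% and 80.2% of all tested genes. The share called was thus not far above that of genes at large. Over all genes, 48%, 43.5% and 48.1% passed as higher and 35.6%, 39.6% and 32.2% as lower. Of all calls, 57.4% were higher in Astrocyte and 59.9% in Oligodendrocyte, against 49.9% in both under median-of-ratios scaling and 48.2% and 47.7% under quantile normalization. The list's median difference was -0.91, -0.93 and -0.83. Spry3 is listed at 0, and Dusp2, Dusp9 and Fosl1 did not pass the filter.

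Ccnd1, the gene of cyclin D1, was the target with the largest fall, from 1713.26, 1702.79 and 1781.85 CPM in NSC to 21.79, 20.69 and 17.79 CPM in Astrocyte, 22.57, 16.77 and 22.46 CPM in Neuron, and 45.73 and 49.29 CPM in Oligodendrocyte. The day 4 libraries lay far below NSC, and Oligodendrocyte lay above the other media without overlap. The differences were -6.37, -6.34 and -5.16 on the log2 scale (limma adjusted p = 7.26e-15, 9.66e-15 and 1.97e-13). Oligodendrocyte exceeded Neuron by 1.18 ± 0.114 (limma adjusted p = 9.96e-07). Egr1, an immediate early gene, fell from 194 ± 20.3 CPM in NSC (SD, n = 3) to 25.2, 39.4 and 28.8 CPM in Astrocyte, Neuron and Oligodendrocyte, by -2.90, -2.27 and -2.72 on the log2 scale.

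Phosphatase genes outside the member list did not move together. Dusp1 and Dusp10, whose products act mainly on the stress kinases p38 and JNK, fell in all media, Dusp1 by -1.79, -1.58 and -1.93 and Dusp10 by -1.95, -1.99 and -1.79 in Astrocyte, Neuron and Oligodendrocyte. Dusp16 fell by -0.91, -0.98 and -0.35. Dusp14 rose, from 3.14 CPM in NSC to 17.1 in Astrocyte, 5.13 in Neuron and 8.49 in Oligodendrocyte, and Dusp8 rose from 4.20 CPM to 7.68, 6.17 and 9.86. The calls of Dusp8 were lost in Astrocyte and Neuron under quantile normalization (limma adjusted p = 0.128 and 0.396). In Neuron the call was also lost with no filter on low values (0.0693), without NSC replicate 1 (0.0702) or 3 (0.0555) and without Neuron replicate 1 (0.0863) or 3 (0.123). Dusp7, a cytoplasmic ERK phosphatase like Dusp6, was read at 26.81, 26.63 and 29.94 CPM in NSC, 13.65, 13.35 and 12.81 CPM in Astrocyte, 14.33, 13.62 and 14.37 CPM in Neuron, and 28.9 and 29.76 CPM in Oligodendrocyte. It fell in Astrocyte and Neuron by -1.01 and -0.93 (limma adjusted p = 6.15e-09 and 1.61e-08), and in Oligodendrocyte its difference was 0.08 (limma adjusted p = 0.359).

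The Neuron level near that of NSC seen for Spred1 recurred for Etv1, an ETS factor gene of the same group as Etv4 and Etv5. Etv1 was read at 124.32, 127.12 and 112.65 CPM in NSC, 145.68, 115.96 and 149.11 CPM in Neuron, 68.06, 63.26 and 63.99 CPM in Astrocyte, and 69.49 and 66.16 CPM in Oligodendrocyte. NSC and Neuron overlapped, and the other media lay below. Its difference from NSC was -0.89 in Astrocyte and -0.83 in Oligodendrocyte (limma adjusted p = 3.84e-07 and 2.91e-06), and 0.17 in Neuron (limma adjusted p = 0.0926). This Neuron difference was called as higher without Neuron replicate 2 (adjusted p 5.34e-04), under quantile normalization (0.0092) and after rescaling without the mitochondrial genome (0.0495). Il17rd, which encodes Sef, an antagonist of fibroblast growth factor signalling, fell by -0.79 in Astrocyte and -1.78 in Oligodendrocyte. In Neuron it was 0.31 above NSC (limma adjusted p = 0.0354), a call lost under median-of-ratios scaling (0.0685) and with no filter on low values (0.082). The call was also lost without NSC replicate 1 (0.0886) or 3 (0.111) and without Neuron replicate 1 (0.127) or 3 (0.149). Of the ephrin receptor genes in the list, Epha2 fell in all media by -1.86, -2.0 and -1.62 and Epha4 rose by 3.37, 3.15 and 3.70. Ier3 fell by -0.90, -0.93 and -1.89, and Phlda1 by -0.21, -0.77 and -0.61, the Astrocyte call of Phlda1 being lost without Astrocyte replicate 3 (limma adjusted p = 0.0582).

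**Figure D4:**
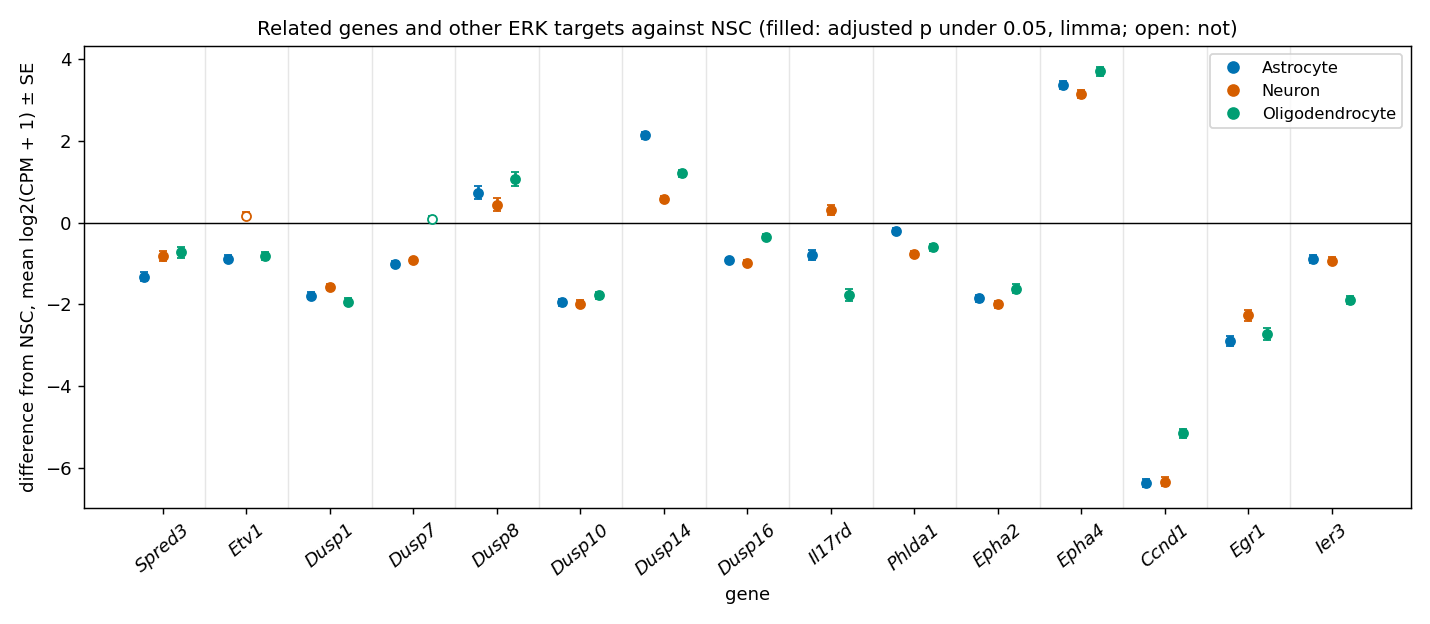
Differences from NSC of 15 related feedback and target genes as the difference of mean log2(CPM + 1), with bars of 1 SE from the limma fit; filled points passed an adjusted p of 0.05. Ccnd1 lies lowest, Epha4 highest, and Etv1 and Il17rd lie above 0 in Neuron and below 0 in the other media.

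The list of receptors and cascade components (34 tested) split into both directions. Against NSC 27 passed in Astrocyte (16 higher, 11 lower), 29 in Neuron (16 higher, 13 lower) and 27 in Oligodendrocyte (21 higher, 6 lower), beside the same backgrounds of 83.6%, 83.1% and 80.2%. Under median-of-ratios scaling the Astrocyte split was 13 higher and 13 lower. Egfr, the receptor gene of epidermal growth factor, fell from an NSC mean of 572 CPM to 125 in Astrocyte, 162 in Neuron and 118 in Oligodendrocyte (-2.18, -1.82 and -2.27). Like Etv4 and Etv5, Egfr was lower than in Neuron both in Astrocyte (-0.37, limma adjusted p = 0.00168) and in Oligodendrocyte (-0.45, limma adjusted p = 7.79e-04). Rps6ka1 and Rps6ka3, genes of ERK-activated S6 kinases, fell in all media, by -0.80, -1.53 and -1.70 and by -1.01, -1.02 and -0.92. Rps6ka2, another such gene of the list, was lower in Neuron (-0.80, limma adjusted p = 7.95e-07) and higher in Oligodendrocyte (0.44, limma adjusted p = 7.25e-04). In Astrocyte Rps6ka2 was not called (0.12, limma adjusted p = 0.185). Other receptor genes rose. The largest rises were those of Met (4.30), Ntrk2 (3.07) and Fgfr2 (2.81) in Astrocyte, Pdgfra (3.24), Ntrk2 (3.03) and Erbb4 (2.64) in Neuron, and Met (3.41), Fgfr2 (2.85) and Erbb4 (2.29) in Oligodendrocyte, among called genes with a group mean of at least 10 CPM. Whether any of these moved the members was not tested.

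Of the ETS and capicua genes, 14 of 17 could be tested, and 10 passed in Astrocyte (4 higher, 6 lower), 11 in Neuron (5 higher, 6 lower) and 10 in Oligodendrocyte (3 higher, 7 lower). These are 71.4%, 78.6% and 71.4% of the tested genes of the list, below the 83.6%, 83.1% and 80.2% of all tested genes. Under median-of-ratios scaling the counts were 2 higher and 10 lower in both Astrocyte and Oligodendrocyte. Erf, an ETS repressor that ERK phosphorylates, fell from an NSC mean of 171 CPM to 34.7 in Astrocyte, 35.7 in Neuron and 37.1 in Oligodendrocyte, by -2.27, -2.23 and -2.18. Ets1 fell by -2.24, -1.25 and -2.06, and like Etv4 and Etv5 it lay below its Neuron level in Astrocyte (-0.98, limma adjusted p = 2.64e-07) and in Oligodendrocyte (-0.81, limma adjusted p = 4.52e-06). Ets2 fell by -1.44, -0.99 and -1.27 and Elk3 by -0.64, -0.99 and -1.84 in Astrocyte, Neuron and Oligodendrocyte. Elf1 rose by 1.12, 1.47 and 1.18. Cic, the capicua gene, was 111 CPM in NSC and 137 in Astrocyte, a difference of 0.30 (limma adjusted p = 0.0162) that lost its call under median-of-ratios scaling (0.225) and without Astrocyte replicate 1 (0.0738). It was not called in Neuron (108 CPM, -0.05, limma adjusted p = 0.643) or in Oligodendrocyte (122 CPM, 0.14, limma adjusted p = 0.277).

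Summed cell cycle and progenitor markers were lower at day 4 than in NSC, and the sums of the other marker lists moved in different directions. Summed over 6 cell cycle markers, NSC libraries held 2489.31 to 2536.5 CPM, Astrocyte 144.48 to 169.63, Neuron 114.57 to 128.9 and Oligodendrocyte 170.21 to 174.33 CPM. The 7 progenitor markers summed to 5027.95 to 5504.53 CPM in NSC, and to between 2580.37 and 4266.38 CPM in the day 4 libraries. The 9 astrocyte markers were at 1794.09 to 1885.77 CPM in NSC and highest in Astrocyte (15409.3 to 17078.9 CPM), and they were also above NSC in Neuron (11507.2 to 12609.7) and Oligodendrocyte (5319.55 to 6074.66). The 8 oligodendrocyte markers were highest in Neuron (2583.41 to 2796.72 CPM) and Oligodendrocyte (2575.52 to 2945.55 CPM), with 70.83 to 78.84 CPM in NSC. The 8 neuron markers summed to 918.51 to 1198.63 CPM in Neuron and 924.91 to 1008.63 CPM in NSC. Among them Stmn2 had a mean under 1 CPM in all groups and Rbfox3 in NSC only, and the others in no group. The 6 precursor markers of the oligodendrocyte lineage were lower in Astrocyte (706.56 to 794.43 CPM) than in Neuron (1602.77 to 2160.74), Oligodendrocyte (1335.12 to 1458.3) and NSC (1790.17 to 1920.52). Markers of microglia and of endothelial cells summed to at most 1.32 and 1.15 CPM in any library, and 5 of 6 mesenchymal markers stayed under 1 CPM, while Pdgfrb was above it at day 4 (summed mesenchymal markers 41.87 to 42.46 CPM in Astrocyte and 34.91 to 41.76 CPM in Neuron). The part of the mix of cells in the members' differences was not tested.

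The libraries were of similar depth, with an estimated 49.3 to 66.2 M (mega) reads behind the CPM values. Libraries of a group correlated at 0.9902 to 0.999 across tested genes, and NSC with day 4 libraries at 0.8156 to 0.8325. The mitochondrial genome took 4.538% to 4.713% of the scale in NSC and 6.131% to 8.911% at day 4, the most in Neuron replicate 2. Rescaling without it left the member calls at 9 in Astrocyte against Neuron and at 8 in Oligodendrocyte against Astrocyte. It lowered them from 9 to 8 in Oligodendrocyte against Neuron, where Spred2 lost its call (limma adjusted p = 0.106).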

How the data were processed

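Poly(A) RNA libraries (TruSeq Stranded mRNA kit, Illumina HiSeq) were made from the 11 cultures, per the labels' protocols. Reads had been handled with bcl2fastq 1.8.4, TopHat2 2.0.8, HTSeq 0.6.1, edgeR 3.2.4 in R 3.0.0, and HOMER on build NCBIM37, per the submitters' processing notes, which give no roles; the strand setting of the counting is not given in the sources used here. The authors deposited 1 table of CPM values per gene and library, with gene coordinates, per the file headers. In the table no member overlaps another gene. The listed genes sum to 74.95% to 80.25% of the scale's full total, so the scale includes other reads. CPM does not correct for gene length, so levels are compared within a gene only.

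Values were taken as log2(CPM + 1), a pseudocount of 1. The 13342 genes that reached 1 CPM in 2 or more libraries were fitted in 1 model of the 11 libraries (R 4.3.3, limma 3.58.1, trended eBayes, 7 residual and 5.96 prior degrees of freedom). The 6 comparisons were tested two-sided with Benjamini-Hochberg adjustment over all tested genes and called at an adjusted p under 0.05. The script was tested on simulated data. The spacing of low values gave 1 read as 0.0151 to 0.0203 CPM, and 99.73% to 100% of low values lay on it when the rounding of the values was allowed for. As rounded, 24.2% to 61.5% of low values lay within 0.1 read of a whole number, and no count test was run. Intervals of counting cover counting error only.

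The members and the gene lists were chosen with earlier results of these data known. All members and all genes of the list of related targets may be named. Of the receptor and ETS lists, those named were taken from the 3 largest rises and the 3 largest falls per comparison among called genes with at least 10 CPM in 1 of the groups. Replicate numbers did not pair the samples. Alternatives were pseudocounts of 0.1 and 5, no filter and a filter of 5 CPM, median-of-ratios scaling, quantile normalization, rescaling without the mitochondrial genome, untrended eBayes, fits of 2 groups, a replicate block and leaving out each library.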

Additional observations from a re-analysis of the deposited data

Results flagged for a closer look

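The results below are cases where a gene's differences from NSC had opposite signs in 2 media and the test between these media passed. The difference from NSC itself was small in 1 of the media for most of them, and for Etv1 in Neuron (limma adjusted p = 0.0926) and Dusp7 in Oligodendrocyte (0.359) it did not pass the test. Dusp4 differed by 1.39 on the log2 scale between Astrocyte and Neuron (limma adjusted p = 3.91e-09), with differences from NSC of 0.12 and -1.27. Between Oligodendrocyte and Astrocyte Dusp4 differed by -0.26 (limma adjusted p = 0.0178), from -0.14 and 0.12. The Astrocyte value of Dusp4 changes sign under median-of-ratios scaling (-0.056).

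Spred1 differed by -0.95 between Astrocyte and Neuron (limma adjusted p = 1.22e-07) and by -0.69 between Oligodendrocyte and Neuron (limma adjusted p = 6.32e-06), with -0.88 in Astrocyte, -0.63 in Oligodendrocyte and 0.06 in Neuron against NSC. The Neuron value of Spred1 is -0.012 under median-of-ratios scaling.

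Of the related genes, Etv1 differed from its Neuron level by -1.05 in Astrocyte (limma adjusted p = 2.52e-07) and by -0.99 in Oligodendrocyte (limma adjusted p = 1.12e-06). Il17rd did so by -1.10 in Astrocyte (limma adjusted p = 5.77e-06) and by -2.09 in Oligodendrocyte (limma adjusted p = 3.37e-08). Dusp7 was higher in Oligodendrocyte by 1.09 than in Astrocyte (limma adjusted p = 7.81e-08) and by 1.01 than in Neuron (limma adjusted p = 9.10e-08), and its difference from NSC in Oligodendrocyte, 0.08, changes sign under the scalings given in the next part.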

How the results depend on the processing

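The count of members called in Astrocyte against Neuron was 9 under all 21 alternatives. In Oligodendrocyte against Neuron it ranged from 6 to 9 over the libraries left out, and in Oligodendrocyte against Astrocyte from 6 to 8. No clear pairing of the libraries by replicate number was seen: same-numbered libraries had correlations of their deviations from -0.51 to 0.41 (median 0.03, 15 pairs), and 5 of 11 libraries correlated best with their own number. Deviations within a group balance each other, so this check cannot exclude a pairing. With the replicate block the member calls were 9, 7 and 8 in the 3 day 4 comparisons, the calls of Spry4 (adjusted p 0.0552) and Spred2 (0.0681) in Oligodendrocyte against Neuron being lost. Median-of-ratios scaling moved the median of all tested genes in Astrocyte against NSC from 0.153 to -0.007 and in Oligodendrocyte against NSC from 0.188 to 0.001, and the members' medians with it.

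The members' median difference from NSC moved in Neuron to -1.604 under quantile normalization. In Oligodendrocyte it moved to -2.321 with a pseudocount of 5, -2.747 with median-of-ratios factors and -2.615 after quantile normalization. Over the libraries left out these medians ranged from -1.813 to -1.742 in Neuron and from -2.583 to -2.490 in Oligodendrocyte. The count of ETS and capicua genes called ranged from 5 to 9 in Oligodendrocyte against Neuron and from 2 to 7 in Oligodendrocyte against Astrocyte, lowest without Oligodendrocyte replicate 2 in both. Signs turned for Dusp4 in Astrocyte (-0.056) and Spred1 in Neuron (-0.012) against NSC under median-of-ratios scaling, and for Dusp7 in Oligodendrocyte against NSC with both scalings (median-of-ratios -0.133, quantile -0.052). They also turned for Dusp5 in Astrocyte against Neuron under quantile normalization (-0.062), and in Oligodendrocyte against Astrocyte for Spry2 (-0.086 to 0.072 over the libraries left out, above 0 without Astrocyte replicate 1 and, at 0.016, without Oligodendrocyte replicate 2) and Etv5 (-0.165 to 0.095, above 0 without Astrocyte replicate 1). The cause was not tested. Fits without 1 Oligodendrocyte library assume that the remaining one varies like the other groups. Depth limits Dusp5 most, with about 94 reads at its lowest.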
